A study of Mus musculus with 6 samples.

Results

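Epithelial and mesenchymal state genes were followed in CT26 tumors, as 10 genes matched by symbol among the 23122 genes of the deposited count table. The epithelial group held 4 of them, Cdh1, Epcam, Krt8 and Krt18, and the mesenchymal group 6, Cdh2, Vim, Snai1, Twist1, Zeb1 and Zeb2. CT26 is a murine colorectal cancer line of BALB/c origin, and 500000 cultured cells were placed under the skin of female BALB/c mice aged 6 to 8 weeks, which have an intact immune system. Tumors of 100 to 200 mm3 were randomized to oral vehicle or to TP-18, named in the series title as a dual antagonist of the prostaglandin E2 receptors EP2 and EP4, at 50 mg/kg once daily for 3 weeks. Whole tumors were sequenced, 3 per group. Separate mice are not stated for the samples, so p-values measure only the spread between these samples, which may be technical.

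Epithelial cells are held together by E-cadherin (Cdh1) and EpCAM and carry the keratin pair KRT8 and KRT18, which assemble with each other into filaments. Mesenchymal cells carry N-cadherin (Cdh2) and filaments of vimentin (Vim). The transcription factors SNAI1, TWIST1, ZEB1 and ZEB2 drive the passage from the first state to the second, the epithelial to mesenchymal transition (EMT), and SNAI1 and the ZEB proteins repress Cdh1 and other epithelial genes through the DNA motif CACCTG. Fibroblasts, endothelial cells and leukocytes of a tumor also express several mesenchymal genes, and keratinocytes of the skin express Cdh1.

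The promoter windows of Epcam, Krt8, Krt18 and Snai1 are shown because they hold that motif, in either strand's reading (CACCTG or CAGGTG, in capitals). Each runs from 250 bases before to 50 bases after the RefSeq start site in GRCm38.p6, 5′ to 3′ on the gene's strand.
Epcam: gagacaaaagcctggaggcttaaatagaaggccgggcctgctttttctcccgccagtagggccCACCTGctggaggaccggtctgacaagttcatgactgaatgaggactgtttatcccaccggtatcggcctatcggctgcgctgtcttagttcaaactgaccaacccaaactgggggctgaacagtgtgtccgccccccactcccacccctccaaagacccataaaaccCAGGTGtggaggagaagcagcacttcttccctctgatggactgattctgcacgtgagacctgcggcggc
Krt8: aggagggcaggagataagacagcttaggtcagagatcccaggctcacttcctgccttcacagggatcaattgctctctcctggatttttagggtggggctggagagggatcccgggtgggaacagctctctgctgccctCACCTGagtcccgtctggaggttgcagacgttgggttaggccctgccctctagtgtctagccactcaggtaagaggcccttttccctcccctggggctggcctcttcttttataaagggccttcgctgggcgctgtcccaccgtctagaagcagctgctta
Krt18: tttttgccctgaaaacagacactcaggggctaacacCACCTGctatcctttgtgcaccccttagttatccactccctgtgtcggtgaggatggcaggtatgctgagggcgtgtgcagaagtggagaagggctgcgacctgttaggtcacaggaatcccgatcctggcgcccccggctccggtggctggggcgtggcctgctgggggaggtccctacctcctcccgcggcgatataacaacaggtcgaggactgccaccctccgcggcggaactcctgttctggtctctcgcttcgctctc
Snai1: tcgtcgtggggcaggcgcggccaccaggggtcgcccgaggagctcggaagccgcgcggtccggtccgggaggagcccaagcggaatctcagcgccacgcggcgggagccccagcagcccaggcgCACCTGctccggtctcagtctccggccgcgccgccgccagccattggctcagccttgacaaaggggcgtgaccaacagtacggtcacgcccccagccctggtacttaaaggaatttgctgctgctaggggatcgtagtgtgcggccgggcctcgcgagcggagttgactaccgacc
Epcam (chr17:87635729-87636028, plus strand) holds 2 matches, beginning 187 and 19 bases before the start site. Krt8 (chr15:102004293-102004592, minus strand) and Krt18 (chr15:102027966-102028265, plus strand) hold 1 each, at 111 and 214 bases before it. Snai1 (chr2:167537945-167538244, plus strand) holds 1, at 126 bases before it. The windows of Vim and Twist1 and the 4 of Zeb2 hold none. Of all 32851 promoter windows of this length 20.2% hold the motif. All 3 epithelial members with a window thus carry it. A match describes the sequence alone, and no binding was measured. Promoters of Cdh1, Cdh2 and Zeb1 were not used here.

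Libraries held 34813482 to 36489081 counts, with 18429 to 18769 genes detected in vehicle and 19278 to 19617 in TP-18 tumors. Levels are CPM (counts relative to library size) after TMM scaling, which sets libraries to a common level by the bulk of genes. This choice bears on small changes: scaling by library totals alone moved the median log2 change of all tested genes from -0.01 to 0.13, and the share of calls that were higher from 57.4% to 85.6%. One library stands apart for skin genes, TP-18 3. Krt5 and Krt14, keratins of the basal epidermis, had 0, 23 and 1 and 1, 19 and 1 reads in vehicle 1, 2 and 3, against 103 and 110 in TP-18 1, 0 and 0 in TP-18 2, and 589 and 534 in TP-18 3. A set of 14 hair keratins, chosen after values were seen, summed to 24.8 CPM in TP-18 3, 1.56 in TP-18 1 and at most 0.214 in any other tumor. Results on epithelial members are therefore also given without TP-18 3.

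By these 10 members the tumors were mesenchymal in profile in both groups. Per length of gene, as the authors' FPKM (counts divided by gene length and library total), Vim stood at 3960 ± 80.7 in vehicle and 3427 ± 372 in TP-18 tumors (SD, n = 3 per group), ranked 6 to 10 among all genes, and took 0.582% to 0.742% of each library's counts. Twist1 followed at 68.6 ± 6.10 and 59.3 ± 2.76 FPKM, Zeb2 at 24.5 ± 0.57 and 24.1 ± 2.24, Snai1 at 14.6 ± 1.35 and 11.2 ± 2.15, and Cdh2 at 7.60 ± 0.95 and 7.33 ± 0.54. The epithelial members other than Krt18 lay far below. Cdh1 had 0.392 ± 0.137 and 0.971 ± 0.204 FPKM, Krt8 0.217 ± 0.130 and 0.0982 ± 0.0101, and Epcam 0.00927 ± 0.0161 and 0.175 ± 0.125. Krt18, at 7.18 ± 1.23 and 4.37 ± 1.25 FPKM, was the exception among the epithelial members, and its range overlapped that of Cdh2. Ranges of Cdh1 and Krt8, and of Krt8 and Epcam, overlapped as well, while all other neighbours in this FPKM order were apart in all 6 tumors. Outside the members the keratin Krt20 had a mean of 150 FPKM in vehicle and 109 in TP-18 tumors, above every member but Vim. The profile thus describes the 10 members and not all epithelial genes. Levels and order depend on the gene lengths used. The authors' values imply 41.3 kb for Zeb1, 9.78 kb for Zeb2 and 1.83 kb for Vim, where the exons of these genes in GENCODE M21 cover 10.3, 19.9 and 4.74 kb. With the GENCODE lengths Vim, still the highest member, stands at 1531 ± 31.2 in vehicle and 1325 ± 144 in TP-18 tumors (counts per kb and library total; SD, n = 3 per group). On that scale Zeb2 stands at 12.0 ± 0.28 and 11.8 ± 1.10 and overlaps Snai1, at 14.6 ± 1.35 and 11.2 ± 2.15. Zeb1 stands at 7.29 ± 0.54 and 6.91 ± 0.47 on it, in place of 1.81 ± 0.135 and 1.72 ± 0.117 FPKM, and overlaps Krt18.

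**Figure D1:**
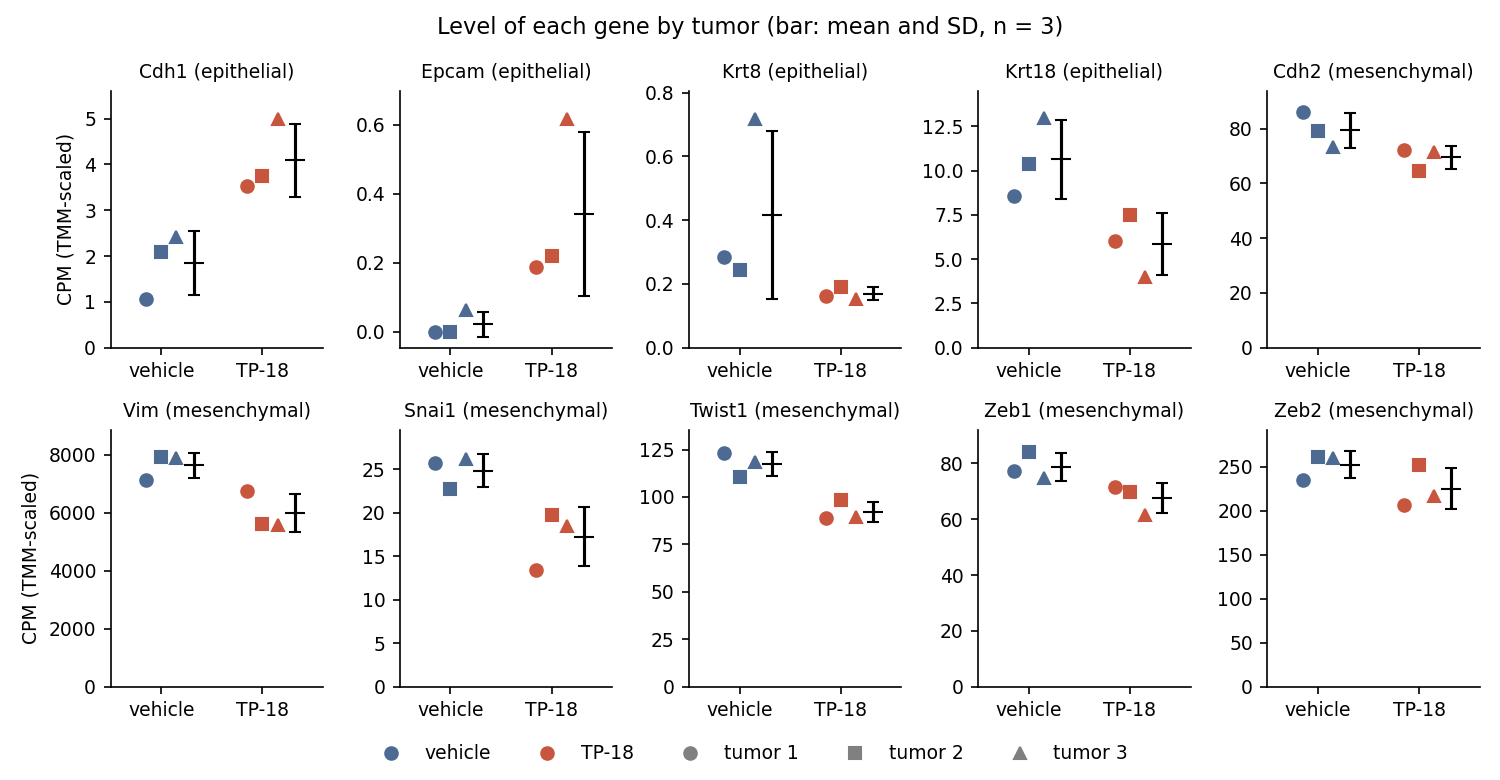
Level of each of the 10 genes in the 6 tumors, in TMM-scaled CPM (linear axes, each gene with its own scale); points are tumors, and bars show the mean and SD of 3 tumors. Cdh1 and Epcam lie higher in all TP-18 than in all vehicle tumors, Krt8, Krt18 and 5 mesenchymal genes lie lower, and Zeb2 overlaps.

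Whether TP-18 tumors differ from vehicle tumors in these genes was tested over 14189 genes, of which 7.09% were called higher and 5.26% lower by edgeR's quasi-likelihood test with a Benjamini-Hochberg adjusted p under 0.05. Among the 10 members 8 entered the test, 2 epithelial and 6 mesenchymal. Twist1 alone was called, as lower. The epithelial members split: Cdh1 and Epcam were higher in all 3 TP-18 tumors than in any vehicle tumor, and Krt8 and Krt18 lower. Over all tested genes groups were apart in this way in 18.0% upward and 17.8% downward, so such separation is frequent in this comparison. With total-count scaling the 4 epithelial members were apart in the same directions, 2 higher and 2 lower, beside 27.9% of tested genes upward and 7.67% downward.

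Cdh1 (Entrez 12550, chromosome 8, 106603350 to 106670247 in GRCm38), the gene of E-cadherin, measured 1.05, 2.08 and 2.40 CPM in vehicle and 3.52, 3.75 and 5.00 CPM in TP-18 tumors. The lowest TP-18 tumor thus lay above the highest vehicle tumor, and the summed reads were 182 and 463. The means of 1.85 ± 0.71 and 4.09 ± 0.80 CPM (SD, n = 3 per group) stand 2.21-fold apart, a log2 change of 1.15 ± 0.34 (SE), and the edgeR adjusted p of 0.0647 missed the threshold. Without TP-18 3 the log2 change was 0.98 and the edgeR adjusted p 0.212. Reads of Cdh1 numbered 131 in TP-18 1, 137 in TP-18 2, which had no read of Krt5 or Krt14, and 195 in TP-18 3. The part of skin in the level of Cdh1 was not tested. Cdh1 was called by DESeq2, which called 9.77% of genes higher, at an adjusted p of 0.0115, by edgeR with total-count scaling (11.2% higher) at 0.0386, and in 3 further alternatives of 17 in all. Within vehicle tumors it varied by 38.2% (CV), where counting alone gives 12.8%.

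Epcam (Entrez 17075, chromosome 17, 87635979 to 87651127), a homophilic adhesion protein of epithelia, was near the detection limit. It had 0, 0 and 2 reads in vehicle and 7, 8 and 24 in TP-18 tumors, with most reads in TP-18 3. The summed reads, 2 against 39, give a ratio of 17.3 with an exact 95% interval of 4.47 to 148, which covers counting error only. Without TP-18 3 the sums of 2 and 15 reads give a ratio of 10.2 (2.36 to 91.5), without vehicle 1 the ratio is 11.2, and without vehicle 3 no vehicle read is left. Too few reads kept Epcam out of the main test. An exact two-sided permutation test on its CPM gave p = 0.1, the smallest value that 3 against 3 allows. Any gene whose groups do not overlap gets this value, so it adds nothing to the lack of overlap. Tested without a filter on low counts, where 4.43% of genes were called higher, it had a log2 change of 3.85 ± 1.07 (SE) and an edgeR adjusted p of 0.0348. DESeq2 gave 4.06 with an adjusted p of 0.0450, and limma on log2(FPKM + 1) without a filter, the other alternative that tested it, 0.21 with an adjusted p of 0.186.

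The keratin pair went the other way. Krt18 (Entrez 16668, chromosome 15, 102028216 to 102032026) measured 8.54, 10.4 and 13.0 CPM in vehicle and 6.02, 7.50 and 4.00 CPM in TP-18 tumors, with no overlap between groups. Its log2 change was -0.86 ± 0.26 (SE), and the edgeR adjusted p of 0.0649 missed the threshold. Without TP-18 3, the tumor with the least Krt18, the log2 change was -0.65 with an edgeR adjusted p of 0.168. With all 6 libraries DESeq2, which called 8.22% of genes lower, called Krt18 at an adjusted p of 0.0104. Krt8 (Entrez 16691, chromosome 15, 101996711 to 102004342), whose gene starts 23.9 kb from the start of Krt18, had 10, 8 and 23 reads in vehicle and 6, 7 and 6 in TP-18 tumors, too few for the test. The sums of 41 and 19 reads give 2.44 times more in vehicle, with an exact 95% counting interval of 1.38 to 4.45. Vehicle 3 alone held 23 of the 41 reads, and without it the ratio is 1.58 (0.780 to 3.17). Without TP-18 3 the ratio is 2.33 (1.22 to 4.74), and edgeR, which then tested Krt8, gave a log2 change of -1.22 with an adjusted p of 0.363. The exact two-sided permutation p was again 0.1, the value of any gene without overlap.

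**Figure D2:**
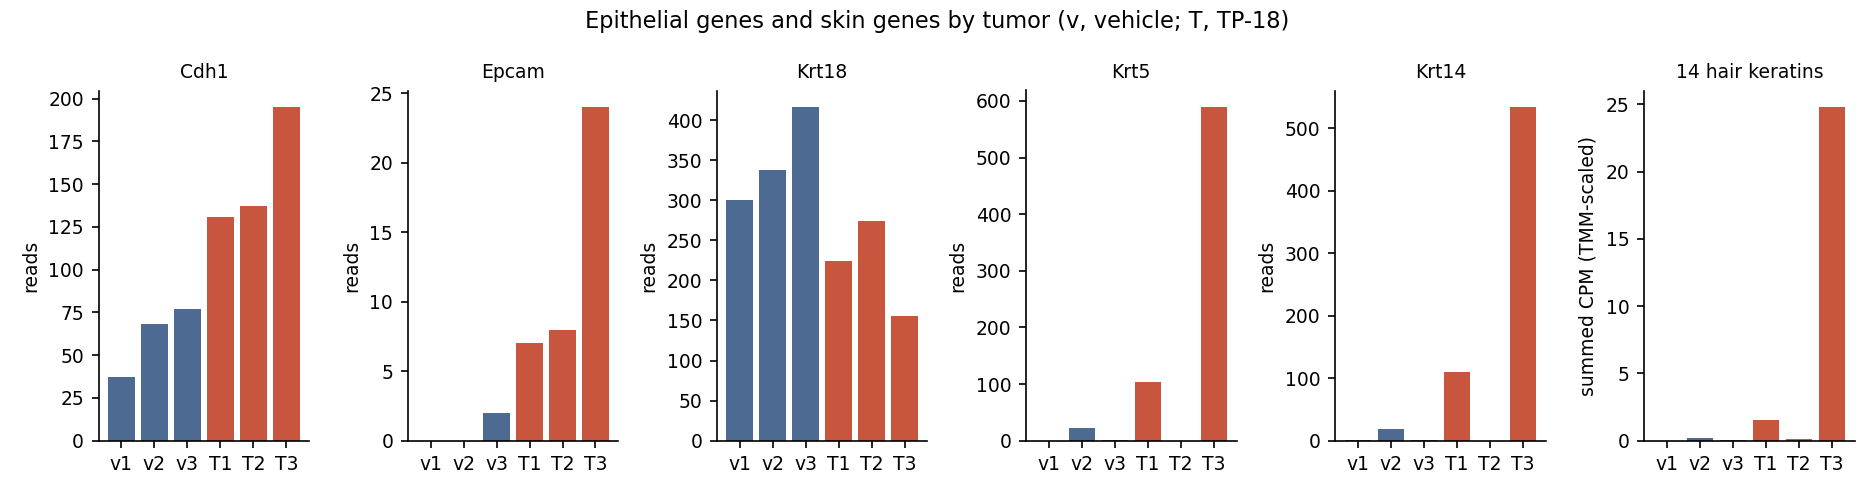
Reads of Cdh1, Epcam and Krt18 in each tumor beside reads of the skin keratins Krt5 and Krt14 and the summed CPM of 14 hair keratins (linear axes from 0; v, vehicle; T, TP-18). Epcam, Cdh1 and the skin keratins are highest in TP-18 3, and Cdh1 has 131 reads in TP-18 1 and 137 in TP-18 2, where Krt5 has 103 and 0 reads.

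All 6 mesenchymal members had negative log2 changes, which ran from -0.16 to -0.53 with a median of -0.28, beside -0.01 over all tested genes. The sign held in all 17 alternatives for each of the 6. Of the 6, 5 lay lower in every TP-18 than in every vehicle tumor with TMM scaling, where 17.8% of all tested genes did. With total-count scaling 3 did, Vim, Snai1 and Twist1, where 7.67% of all tested genes did.

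Among the transcription factors Twist1 (Entrez 22160, chromosome 12, 33957671 to 33959831), a basic helix-loop-helix factor, fell from 123, 111 and 118 CPM in vehicle to 88.6, 98.4 and 89.4 CPM in TP-18 tumors. The groups did not overlap, and their means differed by more than the SD of either. The means were 117 ± 6.30 in vehicle and 92.1 ± 5.43 CPM in TP-18 tumors (SD, n = 3 per group), so the level fell by 21.5%, a log2 change of -0.35 ± 0.08 (SE) with an edgeR adjusted p of 0.0293. The call rests on the scaling and on the libraries. With total-count scaling the log2 change was -0.21 (edgeR adjusted p = 0.157). Leaving out vehicle 1, 2 or 3 gave edgeR adjusted p-values of 0.0490, 0.0655 and 0.0638, and leaving out TP-18 1, 2 or 3 gave 0.105, 0.0517 and 0.117.

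Snai1 (Entrez 20613, chromosome 2, 167538195 to 167542814), a zinc finger repressor, measured 25.6, 22.7 and 26.1 CPM in vehicle and 13.4, 19.8 and 18.5 CPM in TP-18 tumors. TP-18 1 was the lowest, and the groups did not overlap. The log2 change of -0.53 ± 0.15 (SE), the largest in size among the mesenchymal members, missed the threshold with an edgeR adjusted p of 0.0602. Snai1 was called by DESeq2 (adjusted p = 0.0160) and by edgeR without a filter on low counts (0.0263).

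Zeb1 (Entrez 21417, chromosome 18, 5591327 to 5775468) measured 77.2, 84.2 and 74.7 CPM in vehicle and 71.6, 69.8 and 61.4 CPM in TP-18 tumors, a log2 change of -0.22 ± 0.09 (SE) with an edgeR adjusted p of 0.142. Its relative Zeb2 (Entrez 24136, chromosome 2, 44983512 to 45117442) measured 234, 261 and 260 against 207, 251 and 217 CPM, with overlapping groups, a log2 change of -0.16 ± 0.10 (SE) and an edgeR adjusted p of 0.287. Neither passed in any of the 17 alternatives. With total-count scaling the changes were -0.08 and -0.02. The antisense gene Zeb2os overlaps Zeb2 and had 195 to 307 reads per library, against 7684 to 9183 for Zeb2. Whether reads were counted by strand is not given in the sources used here.

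For the structural members, Vim (Entrez 22352, chromosome 2, 13574311 to 13582826) measured 7140, 7915 and 7877 CPM in vehicle and 6741, 5631 and 5582 CPM in TP-18 tumors. TP-18 1 lay close to vehicle 1, and the other TP-18 tumors well below. The log2 change was -0.35 ± 0.12 (SE) with an edgeR adjusted p of 0.0923, and DESeq2 called it at 0.0120. Cdh2 (Entrez 12558, chromosome 18, 16588877 to 16809246) measured 85.9, 79.1 and 73.2 CPM in vehicle and 72.2, 64.7 and 71.6 CPM in TP-18 tumors. The nearest tumors of its groups, at 73.2 and 72.2 CPM, lay closer than the SD of either group. The means of 79.4 ± 6.37 and 69.5 ± 4.18 CPM (SD, n = 3 per group) differed by more than either SD. The log2 change was -0.19 ± 0.09 (SE), and the edgeR adjusted p was 0.187. With total-count scaling the groups overlapped and the change was -0.05.

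**Figure D3:**
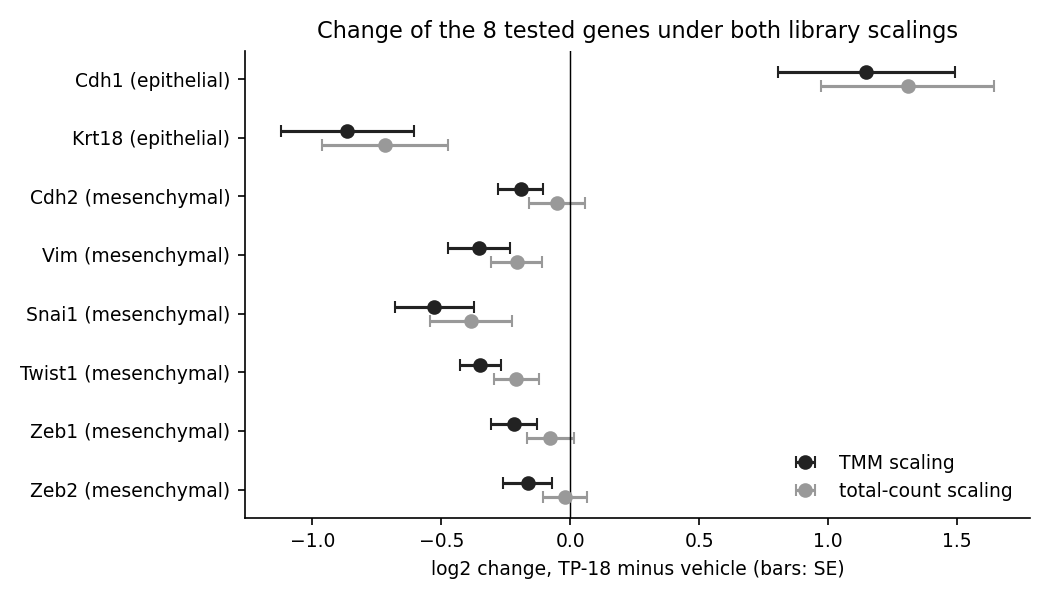
Log2 change of the 8 tested genes, TP-18 minus vehicle, with SE, under TMM scaling (black) and total-count scaling (grey). Cdh1 lies at 1.15 and 1.31, Krt18 at -0.86 and -0.72, and the mesenchymal genes between -0.53 and -0.02, with smaller falls under total-count scaling.

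Ratios of genes within a tumor do not depend on library scaling, and the gene lengths used set their size alike in every tumor. The FPKM of Cdh2 exceeded that of Cdh1 in every tumor, by 36.3, 16.9 and 13.5 times in vehicle and by 9.12, 7.67 and 6.37 times in TP-18 tumors. The cadherin ratio was thus lower in every TP-18 tumor, with Cdh1 as the member that differed more. In TMM-scaled CPM Cdh1 lay higher and Cdh2 lower in every TP-18 than in every vehicle tumor. Their ratio therefore had to be apart, and it adds nothing to those separations. Krt18 exceeded its partner Krt8 by 23.3 to 54.5 times in vehicle and by 33.5 to 50.5 times in TP-18 tumors, with overlapping groups, so this imbalance was a feature of all 6 tumors. GENCODE lists a processed Krt8 copy, Krt8-ps, on chromosome 7, and how reads that map to several places were handled is not given in the sources used here. Twist1 exceeded Snai1 by 4.51 to 4.85 times in vehicle and 4.80 to 6.56 times in TP-18 tumors, and Vim exceeded Krt18 by 463 to 638 and 573 to 1065 times. Both of these ratios overlapped between groups.

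**Figure D4:**
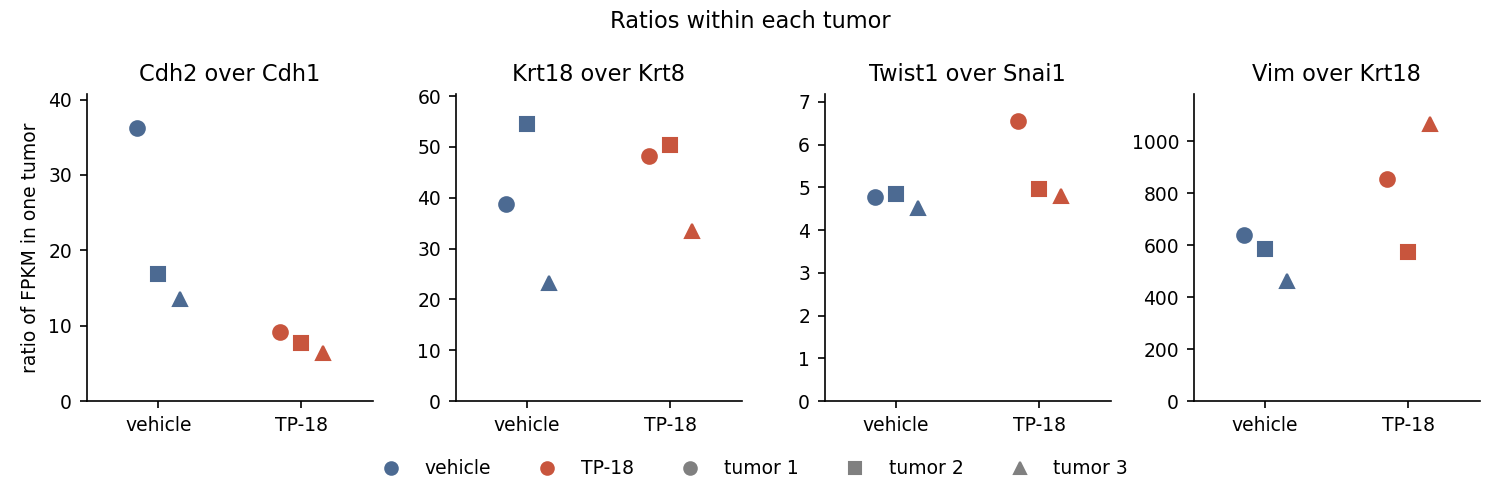
Ratio of FPKM between pairs of genes in each tumor (linear axes from 0; points are tumors). The Cdh2 to Cdh1 ratio is 6.37 to 9.12 in TP-18 and 13.5 to 36.3 in vehicle tumors, while the other ratios overlap between groups.

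Other epithelial genes gave a mixed picture. Counts of each list stand beside 7.09% called higher and 5.26% called lower over all tested genes. Of 29 junction and keratin genes 17 were tested, and 2 rose and 1 fell. Spint2, a membrane inhibitor of serine proteases in epithelia, rose from 0.961 ± 0.063 to 4.00 ± 0.80 CPM (SD, n = 3 per group; log2 change 2.05 ± 0.27, edgeR adjusted p = 0.00543) and passed whichever library was left out. Tjp3, the tight junction scaffold ZO-3, rose from 0.328 ± 0.091 to 1.17 ± 0.06 CPM (edgeR adjusted p = 0.0210). It kept its call without vehicle 1 alone, with edgeR adjusted p-values of 0.0501 to 0.0850 without any other library. Krt20, a keratin of differentiated gut epithelium, fell from 307 ± 40.5 to 203 ± 20.7 CPM (edgeR adjusted p = 0.0204) and was far more abundant than Krt8 or Krt18. Its edgeR adjusted p was 0.0827, 0.0693 and 0.0818 when vehicle 2, TP-18 1 or TP-18 3 was left out, and 0.0571 with total-count scaling. Krt19 had 4, 10 and 94 reads in vehicle and 0, 9 and 2 in TP-18 tumors and was not tested. The median log2 change of the 17 was 0.20.

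Of 15 epithelial transcription and splicing regulators 4 were tested, and 1 fell. Klf5, a factor of proliferating gut epithelium, fell from 54.9 ± 8.21 to 29.9 ± 1.84 CPM (SD, n = 3 per group; log2 change -0.87 ± 0.12, edgeR adjusted p = 0.00623) and passed whichever library was left out. Grhl2, a factor that maintains epithelial junctions, had 3, 0 and 2 reads in vehicle and 4, 2 and 6 in TP-18 tumors. The epithelial splicing factors Esrp1 and Esrp2 had 22 and 26 reads in TP-18 3 and at most 1 in every other tumor.

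Mesenchymal structure and matrix genes moved little as a list, with 1 of 26 higher, 2 lower and a median log2 change of -0.05. Fn1, fibronectin, fell from 6569 ± 1127 to 4116 ± 294 CPM (SD, n = 3 per group; log2 change -0.67 ± 0.14, edgeR adjusted p = 0.0248). Leaving out vehicle 2 or TP-18 1, 2 or 3 gave 0.0837, 0.0799, 0.0566 and 0.103. Cald1, the actin-binding caldesmon, fell from 828 ± 67.3 to 599 ± 56.4 CPM (edgeR adjusted p = 0.0283), and leaving out vehicle 2, vehicle 3, TP-18 1 or TP-18 3 gave 0.0992, 0.0580, 0.0926 and 0.1002. Des, desmin, a muscle filament, rose from 3.95 ± 1.54 to 11.1 ± 3.28 CPM (edgeR adjusted p = 0.0329), which became 0.0644, 0.0672, 0.0877 and 0.110 on leaving out vehicle 1, vehicle 2, TP-18 1 or TP-18 3. Beside Des, the summed level of 11 skeletal muscle markers was 9.93 to 31.5 CPM in vehicle and 57.1 to 116 CPM in TP-18 tumors, with 4 of 11 called higher by edgeR (9 by DESeq2 and 9 at an unadjusted p under 0.05) and none at 0, and their part in the result was not tested.

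Of 13 other EMT transcription factors 11 were tested, and 2 fell by edgeR. DESeq2 called 4 lower and 0 higher, with the same numbers at an unadjusted p under 0.05. Over all genes 8.22% were called lower by DESeq2, and 14.6% were lower at an unadjusted p under 0.05. The largest falls, of Sox9 (log2 change -1.20 ± 0.32 (SE), edgeR adjusted p = 0.0625) and Sox4 (-1.13 ± 0.29, 0.0572), missed the threshold. Twist2, the closest relative of Twist1, fell from 67.1 ± 1.97 to 48.9 ± 2.22 CPM (SD, n = 3 per group; log2 change -0.46 ± 0.07, edgeR adjusted p = 0.0104). Without vehicle 2 its edgeR adjusted p was 0.0517, and with total-count scaling 0.0503. Hmga2, a chromatin protein that induces Snai1 and Twist1 in cultured cells, fell from 738 ± 63.2 to 543 ± 29.2 CPM (edgeR adjusted p = 0.0248). That p was 0.0950 when vehicle 2 was left out, 0.0881, 0.0548 and 0.0990 when TP-18 1, 2 or 3 was, and 0.0903 with total-count scaling. Snai2, the relative of Snai1, measured 22.6 ± 2.29 and 23.8 ± 3.62 CPM (edgeR adjusted p = 0.752), with overlapping groups. The median log2 change of the 11 was -0.31.

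In the TGF-beta pathway, a main inducer of EMT, 3 of 16 genes fell and 0 rose by edgeR (4 lower and 0 higher at an unadjusted p under 0.05, and 3 and 0 by DESeq2), with a median log2 change of -0.16. Over all tested genes edgeR called 5.26% lower, and 14.6% were lower at an unadjusted p under 0.05. Groups were apart without overlap for 4 of the 16 downward and 1 upward, beside 17.8% and 18.0% of all tested genes. Ltbp1, which stores latent TGF-beta in the matrix, fell from 490 ± 26.9 to 326 ± 11.4 CPM (SD, n = 3 per group; log2 change -0.59 ± 0.08, edgeR adjusted p = 0.00572) and passed whichever library was left out. Smad7, an inhibitory SMAD that the pathway induces, fell from 39.8 ± 7.41 to 22.2 ± 2.68 CPM (edgeR adjusted p = 0.0161), which was 0.0675, 0.0554 and 0.0687 when vehicle 2, TP-18 1 or TP-18 3 was left out. Acvr1, a type I receptor of the family, fell from 76.9 ± 6.56 to 53.4 ± 3.73 CPM (edgeR adjusted p = 0.0138), and on leaving out the same libraries 0.0592, 0.0509 and 0.0648. The ligand Tgfb1 had a log2 change of -0.14 ± 0.10 (SE) and an edgeR adjusted p of 0.378.

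Bulk RNA cannot tell fewer cells of a type from less RNA per cell, so other cell types are given beside the members. Skin epidermis markers summed to 131 to 193 CPM in vehicle and 89.7 to 157 CPM in TP-18 tumors, with 0 of 7 tested genes higher (1 at an unadjusted p under 0.05, 0 by DESeq2) and 1 lower by edgeR, Lgals7, which makes up most of the sum. Over the 7 tested genes the median log2 change was 2.29, opposite in sign to that of Lgals7 (-0.67). Of the 14 markers 5 had no read in any vehicle tumor, among them Krt1. Fibroblast markers, which accompany Vim, Twist1 and Zeb1, summed to 892 to 1244 and 825 to 989 CPM, with 0 of 11 called by edgeR. At an unadjusted p under 0.05 there were 1 higher and 1 lower, and the same numbers by DESeq2. Macrophage markers, which accompany Vim and Zeb2, summed to 1551 to 2213 CPM in vehicle and 2660 to 3378 CPM in TP-18 tumors, with 3 of 10 called higher by edgeR (7 by DESeq2 and 7 at an unadjusted p under 0.05). T and NK cell markers summed to 21.4 to 37.6 and 105 to 111 CPM, with 10 of 10 called higher. In both groups of leukocyte markers no gene was at 0. Red blood cell markers summed to 66.3 to 395 CPM in vehicle and 14.8 to 33.9 CPM in TP-18 tumors, with 4 of 5 tested genes called lower by edgeR, 5 by DESeq2 and 5 at an unadjusted p under 0.05, and a median log2 change of -3.31. Over all tested genes 15.3% were higher and 14.6% lower at an unadjusted p under 0.05. The part of these cells in the members' results was not tested. Among gut markers, Cdx2, the defining factor of gut epithelium, had 16, 13 and 8 reads in vehicle and 2, 7 and 7 in TP-18 tumors. Hnf4a had 1 read in all, in TP-18 1. Lgr5 went the other way, with 0 reads in every vehicle tumor and 8, 5 and 24 in TP-18 tumors. Lgals4 had 94, 146 and 129 reads in vehicle and 101, 119 and 67 in TP-18 tumors. For Cdh17 the reads were 10, 37 and 156 against 56, 100 and 67. Muc2 had 2, 7 and 13 against 1, 4 and 0, and Vil1 0, 1 and 2 against 8, 1 and 0. Of 10 gut markers listed 7 were matched in the count table. Of these 7, 2 were tested and 0 called by edgeR, by DESeq2 or at an unadjusted p under 0.05. The 7 summed to 3.47 to 9.62 CPM in vehicle and 4.23 to 6.46 CPM in TP-18 tumors, so few transcripts of these markers were present. Krt20 and Klf5, which are outside this list, were more abundant.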

How the data were processed

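RNA sequencing counts of 6 CT26 tumors, 3 vehicle and 3 TP-18 by the labels, were analysed. Counts were deposited by the authors as whole numbers without normalization, and the submitters' processing notes name fastp, HISAT2, HTSeq and GRCm38, without versions. The deposited FPKM values were made by the authors from those counts, a gene length and the library total. Levels within a gene are TMM-scaled CPM, and levels between genes are FPKM. Genes passing filterByExpr (minimum count 10, minimum total 15) were tested in R 4.3.3 with edgeR 4.0.16 (TMM, group alone, robust quasi-likelihood F test, two-sided, Benjamini-Hochberg adjusted p under 0.05), after a check on simulated data. Log2 changes, TP-18 minus vehicle, use a prior count of 0.125, and each SE derives from the F statistic. Alternatives were RLE and total-count scaling (the latter, and read ratios without each library, added after seeing the data), no filter on low counts, 1 CPM in 3 libraries, moderation that was not robust, a block of replicate numbers, each library left out, DESeq2 1.42.0, limma-voom (limma 3.58.1), and limma's trend test on log2(FPKM + 1) and log2(FPKM + 0.1) for genes with a mean FPKM of at least 0.1, the former also without that filter. Counting error is small beside the spread between tumors except for Epcam and Krt8, and PCR copies cannot be recognized. Members and lists were chosen with earlier results of these data known. Named genes are all members, up to 4 called genes of each pathway list by smallest p (or 2 where none was called), and Snai2, Twist2, Fn1, Krt19, Grhl2 and Cdx2. The others named were chosen after their values were seen. They are Krt5, Krt14, Krt1, the hair keratins, Lgals7, Esrp1, Esrp2, Tgfb1, Sox4, Sox9, Zeb2os and the gut markers besides Cdx2. RefSeq promoters matched 7 of the 10 members.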

Additional observations from a re-analysis of the deposited data

How the results depend on the processing

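No member changed sign in any alternative in which it could be tested. No mesenchymal member was called higher in any alternative. With total-count scaling 1593 genes were called higher and 268 lower, 1 epithelial member was higher, and 0 mesenchymal members were lower. DESeq2 called 1469 higher and 1235 lower, with 2 epithelial members higher and 1 lower and 3 mesenchymal members lower, and edgeR without a filter on low counts gave 2, 1 and 2. On log2(FPKM + 1) 1294 were higher and 207 lower, with 1 epithelial member higher and 0 mesenchymal members lower. On log2(FPKM + 0.1) these counts were 1308, 219, 1 and 0, and with either pseudocount the calls of Twist1, Hmga2, Krt20, Cald1 and Acvr1 were lost, and on log2(FPKM + 1) without a filter 751 and 95 genes, with 0 epithelial members higher and 0 mesenchymal members lower. With 1 library left out 388 to 1216 genes were higher and 111 to 1023 lower, and 0 to 1 mesenchymal members were lower. The replicate block gave 547 higher, 231 lower and 0 mesenchymal members lower, but the labels pair no tumors and deviations of tumors with equal numbers correlated at 0.255, -0.099 and -0.066. Of the changes of single genes named, Snai2 reversed, to -0.039 without TP-18 1 (-0.039 to 0.18 over the libraries left out), and the cause was not tested. Among all other changes 311 kept their side of the threshold, 65 lost a call and 13 gained one. In these counts Epcam, Krt8, Krt19, Grhl2 and Cdx2, which the main test left out, stand as not called in it. Grhl2 had no adjusted p by DESeq2 and stands there as not called too. Depth limits Epcam, Krt8, Krt19, Grhl2 and Cdx2, which lie near the detection limit.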
